A study of Mus musculus with 11 samples.

Results

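The genes described here are 6 genes of the Schwann cell and its myelin sheath, Sox10, Mbp, Pmp22, Mal, Prx and Cnp, measured in the tibialis anterior (TA) muscle of dystrophic and healthy mice. They were chosen by name, with earlier results of these data known. They are the probe sets that carry these symbols among the 21759 gene symbols of the array. Each of the 6 has 1 probe set. RNA came from cryosections of the TA of 11 male mice, hybridized to Affymetrix Mouse Gene ST arrays with a separate array for each mouse. The 3 C57 mice are wild type, of strain C57/B10. The 4 mdx mice carry a nonsense mutation in Dmd, the gene of dystrophin, on a C57/Bl10ScSn substrain, and were left untreated. The 4 Pip6e-PMO-treated mdx mice carry the same mutation and received a single tail vein injection of 12.5 mg/kg at 12 weeks of age. Pip6e-PMO is a peptide-conjugated morpholino oligonucleotide that makes the splicing machinery skip the mutated exon, so that a shortened dystrophin can be made. All mice were 14 weeks old, and no C57 mouse was injected, so the effect of an injection as such was not measured.

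Schwann cells are the glia of peripheral nerve. A myelinating Schwann cell wraps its membrane many times around one axon of large calibre, and the stacked membrane, compact myelin, is held together by a small set of abundant proteins and by lipids rich in cholesterol and galactolipid. In muscle these cells lie along the motor and sensory axons of the intramuscular nerve branches, and Schwann cells without myelin cover the motor nerve terminal at the neuromuscular junction. Among the 6 genes, Sox10 encodes the transcription factor that specifies and maintains the Schwann cell lineage. Mbp (myelin basic protein) sits at the inner face of compact myelin, Pmp22 (peripheral myelin protein) and Mal (myelin and lymphocyte protein) span its membranes, and Prx (periaxin) links the outer Schwann cell membrane to the basal lamina. Cnp is an enzyme of the uncompacted cytoplasm of myelinating glia. Neither Pmp22 nor Cnp is restricted to glia, Mal is also made by some epithelia and T cells, and transcripts from the Mbp locus occur in blood cells.

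With 3 or 4 arrays a group, their number sets how precise each value can be. Median signals on the linear scale lay between 27.5 and 28.6 over the 11 arrays. The log2 signal of Dmd lay between 5.77 and 5.87 in C57, 4.60 and 5.82 in mdx, and 5.51 and 6.34 in treated mice. Since the mutation is a point change, this level does not check the genotype. C57 replicate 3 stood high on genes of the myelin sheath. It had the highest value of all 11 mice for 4 of the 6 genes (Sox10, Mbp, Prx and Cnp), and for 2344 of the 14494 probe sets tested. It was the highest C57 mouse for the same 4, whereas it was the highest C57 mouse for 37.3% of the 14494 probe sets tested. Among the treated mice, replicate 2 lay farthest from its own group over all probe sets, with a median absolute deviation of 0.257 in log2 signal against 0.103 to 0.177 for the other 10 arrays. Calls that changed when either mouse was left out are given beside the results.

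Of the 6 genes, Mbp, Mal and Sox10 were lower in mdx than in C57 muscle, Pmp22 and Cnp were not called, and Prx was too faint to be tested. None was higher in treated than in untreated mdx mice, and Cnp was lower. A probe set was tested when its mean signal reached 30 in at least 1 group, and a call means that its p from limma, adjusted after Benjamini and Hochberg, was under 0.05. The 5 tested genes gave 3 calls in mdx against C57, all lower, where 12.0% of all probe sets tested were called in either direction, 4.96% were called lower and 7.06% higher. In treated against mdx mice they gave 1 call, lower, where 11.1% were called, 3.88% lower and 7.26% higher. In treated against C57 mice they gave 4 calls, all lower, where 24.6% were called, 8.96% lower and 15.6% higher. The count of tested genes must be read with care, since Mal and Sox10 reached the minimum signal only in the C57 group and so could pass only by being higher there. When no minimum was set, the calls were 3, 0 and 5 of all 6 genes, where 2.56%, 1.96% and 5.26% of the 28350 probe sets were called lower, and in treated against mdx mice 1 of the 6 (Cnp) had an unadjusted p under 0.05. Without treated replicate 2 the calls of the 6 genes were again 3, 1 and 4, whereas over all probe sets the calls in treated against mdx mice went from 1615 to 4103. The comparisons share mice, so their calls are not independent of each other. In whole muscle, fewer Schwann cells and less RNA per Schwann cell cannot be told apart.

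**Figure D1:**
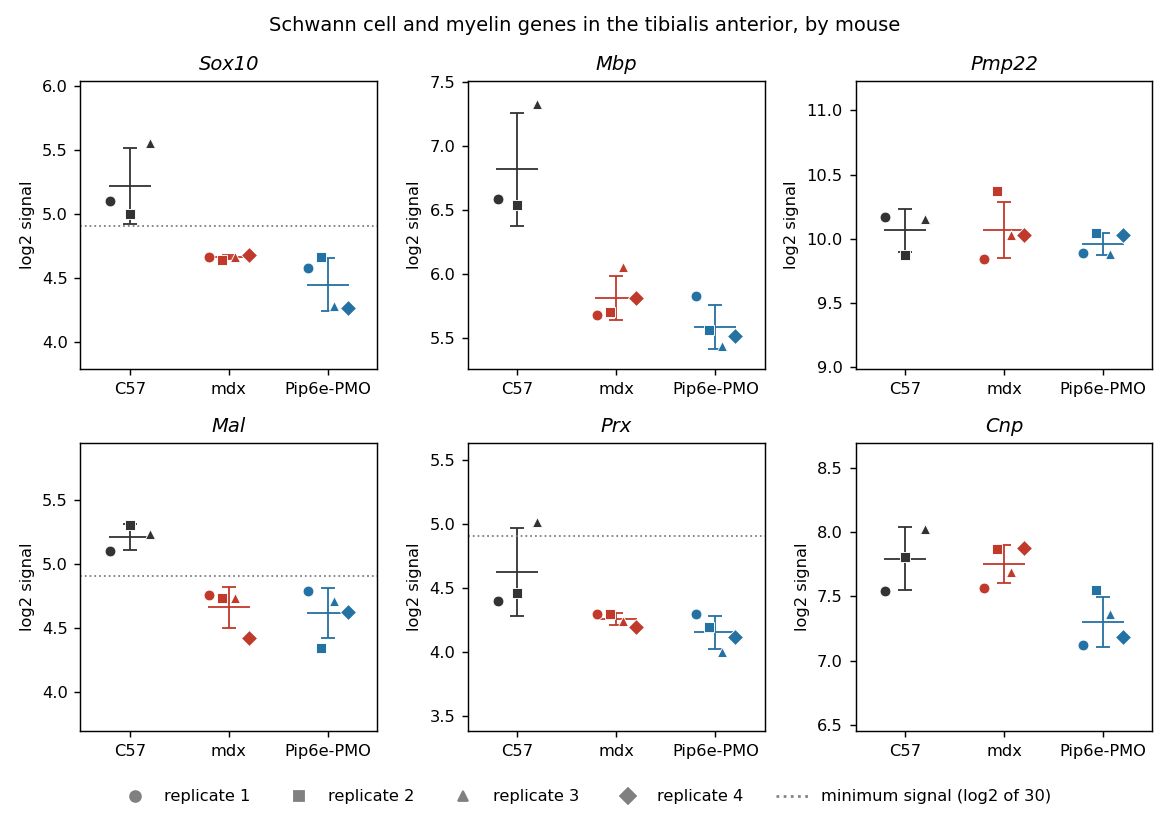
Log2 signal (y axis) of the 6 genes in each mouse, by group (x axis), with the symbol giving the replicate, horizontal bars the group mean and error bars the SD (n = 3, 4 and 4); every panel spans the same range of log2 units, and the dotted line is the minimum signal of 30. The mdx and treated mice lie below all 3 C57 mice for Sox10, Mbp, Mal and Prx, the groups overlap for Pmp22, and the treated mice lie below the mdx mice for Cnp.

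Sox10, the lineage regulator, measured 5.10, 5.0 and 5.56 in log2 signal in C57 replicates 1 to 3. The 4 mdx mice measured 4.67, 4.64, 4.67 and 4.68, and the 4 treated mice 4.58, 4.67, 4.28 and 4.27. All mdx and treated mice lay below every C57 mouse, and the mdx and treated groups overlapped. The mdx mice were nearly identical, with a mean of 4.66 ± 0.02 (SD, n = 4) against 5.22 ± 0.30 (SD, n = 3) in C57. On the linear scale the group means of Sox10 were 37.8 in C57, 25.4 in mdx and 22.0 in treated mice, so in both dystrophic groups the probe set lay under the minimum signal. The difference of mdx from C57 in log2 signal was -0.55 (standard error 0.14, 95% interval -0.86 to -0.25, adjusted p = 0.0246), a 1.47-fold lower signal. This call depended on single mice. Without C57 replicate 3 the difference was -0.39 with an adjusted p of 0.101, and the call was also lost without mdx replicate 1, 2 or 3 (adjusted p of 0.0502 to 0.0590). Treated mice differed from C57 by -0.77 (-1.08 to -0.46, adjusted p = 0.0033), and this call held with each of the 11 mice left out, at adjusted p of 0.002 to 0.0142. From mdx, the treated mice differed by -0.22 (-0.50 to 0.07, adjusted p = 0.286).

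Mbp had the largest difference of the 6. Its probe set, 10457022, has 54 probes and is placed on chromosome 18 in the deposited table, whose positions name no genome build. C57 mice measured 6.59, 6.54 and 7.33 in log2 signal, mdx mice 5.68, 5.71, 6.06 and 5.82, and treated mice 5.83, 5.57, 5.44 and 5.52. The lowest C57 mouse stood above the highest mdx mouse, and the treated mice overlapped the mdx mice. C57 replicate 3 was the highest of all, apart from the other 2 C57 mice. The mdx mean of 5.82 ± 0.17 (SD, n = 4) was 2-fold lower than the C57 mean of 6.82 ± 0.44 (SD, n = 3), a log2 difference of -1.0 (standard error 0.18, 95% interval -1.40 to -0.61, adjusted p = 0.0038). When single mice were left out, the difference ran from -1.14 to -0.75, at adjusted p of 0.0038 to 0.0135, and -0.75 was the value without C57 replicate 3. In treated mice Mbp was 2.35-fold lower than in C57 (log2 difference -1.23, standard error 0.18, -1.62 to -0.84, adjusted p = 9.5e-04). Treated minus mdx was -0.23 (-0.59 to 0.14, adjusted p = 0.377), so an increase of more than 0.14 in log2 signal lay outside the interval.

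Pmp22 did not share this pattern. C57 mice measured 10.17, 9.87 and 10.15, mdx mice 9.84, 10.37, 10.03 and 10.03, and treated mice 9.89, 10.04, 9.88 and 10.03. The 3 groups overlapped throughout, and the highest mouse was mdx replicate 2. The log2 difference of mdx from C57 was 0.00, with a 95% interval of -0.27 to 0.28 (adjusted p = 0.991). Treated mice differed from mdx by -0.11 (-0.36 to 0.15, adjusted p = 0.566) and from C57 by -0.10 (-0.38 to 0.17, adjusted p = 0.572). The falls measured for Mbp against C57, in mdx and in treated mice, lay outside the intervals of Pmp22 in the same comparisons.

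Mal, the lipid raft protein of compact myelin, was faint. C57 mice measured 5.10, 5.30 and 5.23 in log2 signal, mdx mice 4.76, 4.73, 4.73 and 4.42, and treated mice 4.79, 4.34, 4.71 and 4.62. Every mdx and treated mouse lay below every C57 mouse, and unlike Sox10 and Mbp, Mal was highest in C57 replicate 2 and not in replicate 3. The linear means were 37.1 in C57, 25.4 in mdx and 24.7 in treated mice. Mal was 1.46-fold lower in mdx than in C57 (log2 difference -0.55, standard error 0.13, 95% interval -0.82 to -0.28, adjusted p = 0.0135). The call was lost without C57 replicate 2, where the difference was -0.50 and the adjusted p 0.0689. Treated minus C57 was -0.60 (-0.87 to -0.32, adjusted p = 0.0065), and treated minus mdx was -0.05 (-0.30 to 0.21, adjusted p = 0.825).

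Prx, whose product is a structural protein of myelinating Schwann cells, reached the minimum signal in no group. Its log2 signal was 4.40, 4.46 and 5.02 in C57, 4.30, 4.30, 4.24 and 4.20 in mdx and 4.30, 4.20, 4.00 and 4.12 in treated mice. Every dystrophic mouse lay below every C57 mouse, though the gap to the 2 lower C57 mice was small. The linear group means were under 30 (25.2 in C57, 19.2 in mdx and 17.9 in treated mice), so Prx was not tested. In the fit of all 28350 probe sets, Prx differed by -0.37 in mdx against C57 (-0.66 to -0.07, adjusted p = 0.153), by -0.47 in treated against C57 (-0.76 to -0.18, adjusted p = 0.0397) and by -0.10 in treated against mdx mice (-0.38 to 0.17, adjusted p = 0.636).

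Cnp was the one gene of the 6 that was lower in treated than in mdx mice. C57 mice measured 7.54, 7.81 and 8.03, mdx mice 7.57, 7.87, 7.69 and 7.88, and treated mice 7.12, 7.55, 7.36 and 7.18. The mdx mice lay within the C57 range and all 4 treated mice lay below all 4 mdx mice, with treated replicate 2 at 7.55 just under mdx replicate 1 at 7.57. In mdx against C57 the log2 difference of Cnp was -0.04 (-0.35 to 0.27, adjusted p = 0.911). Treated minus mdx was -0.45 (standard error 0.13, 95% interval -0.73 to -0.17, adjusted p = 0.0465), a 1.37-fold lower signal. This adjusted p lay close to the threshold, and the call was lost in 7 of the 11 fits that left out 1 mouse (without C57 replicate 2, mdx replicates 2, 3 and 4, and treated replicates 1, 3 and 4), with adjusted p up to 0.125. Treated minus C57 was -0.49 (-0.80 to -0.18, adjusted p = 0.0268), lost without C57 replicate 2 or 3 or treated replicate 1 or 4, and without C57 replicate 3 the difference was -0.37 with an adjusted p of 0.122.

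Counted by overlap, 4 of the 6 genes (Mbp, Prx, Mal and Sox10) had every mdx mouse below every C57 mouse, where 11.3% of the probe sets tested and 7.86% of all 28350 did so. The same 4 had every treated mouse below every C57 mouse, where 14.1% of the probe sets tested and 3648 of all 28350 did so. In treated against mdx mice, 1 of the 6 (Cnp) did so, where 6.69% of the probe sets tested and 1846 of all 28350 did so. All 6 treated means were below the mdx means, by 0.05 to 0.45 in log2 signal. In that comparison 16966 of all 28350 probe sets had a negative difference. The largest upper limit of the intervals of the 6 genes was 0.21, for Mal.

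**Figure D2:**
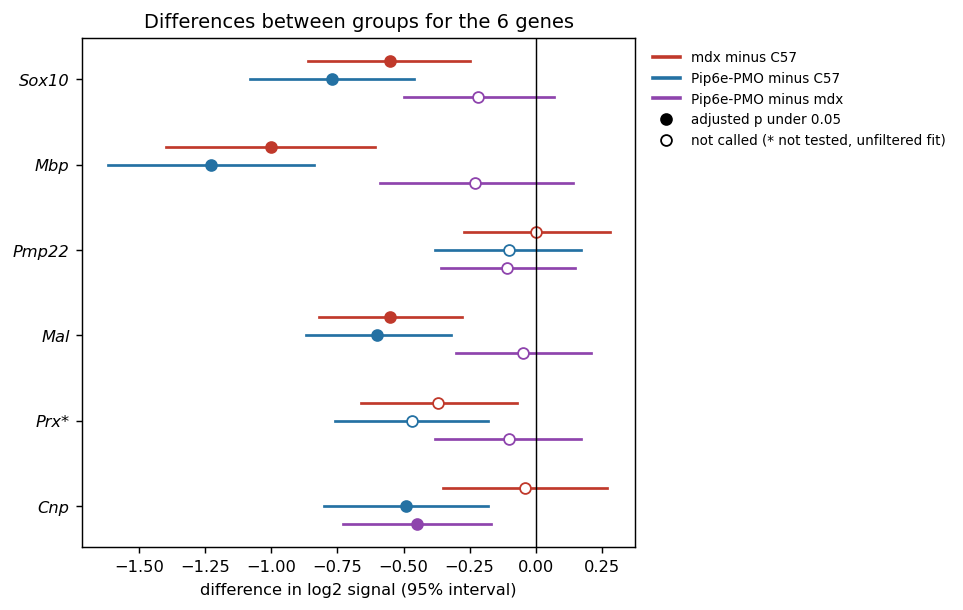
Difference in log2 signal (x axis) between groups for each of the 6 genes, with 95% intervals from limma. Filled points are tested genes with an adjusted p under 0.05, and Prx, which was not tested, has open points throughout. The intervals of mdx minus C57 and of treated minus C57 lie below 0 for Sox10, Mbp and Mal, those of treated minus mdx include 0 for all but Cnp, and Prx (marked *) is drawn from the fit without a minimum signal.

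The sequences before the transcription starts of Mal, Prx and Cnp are shown because these are the members lower in a dystrophic group for which a RefSeq window was at hand. Each is 250 bases of GRCm38.p6, 5′ to 3′ on the strand of the gene, ending at the base before the start. Mal is from chr2:127656696-127656945 (minus strand), Prx from chr7:27499074-27499323 (plus strand) and Cnp from chr11:100574689-100574938 (plus strand). The letters ACAAAG and ACAATG, the core that SOX proteins bind, were searched on both strands and are in capitals where found.
Mal: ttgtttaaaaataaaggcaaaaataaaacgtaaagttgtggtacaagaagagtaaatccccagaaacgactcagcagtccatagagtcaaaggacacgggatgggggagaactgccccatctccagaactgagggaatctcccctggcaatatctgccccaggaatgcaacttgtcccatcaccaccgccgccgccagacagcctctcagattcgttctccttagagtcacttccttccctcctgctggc
Prx: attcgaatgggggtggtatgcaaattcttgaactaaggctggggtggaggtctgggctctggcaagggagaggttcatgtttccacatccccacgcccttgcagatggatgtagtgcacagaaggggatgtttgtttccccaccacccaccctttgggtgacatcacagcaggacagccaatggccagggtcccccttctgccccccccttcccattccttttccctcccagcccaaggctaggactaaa
Cnp: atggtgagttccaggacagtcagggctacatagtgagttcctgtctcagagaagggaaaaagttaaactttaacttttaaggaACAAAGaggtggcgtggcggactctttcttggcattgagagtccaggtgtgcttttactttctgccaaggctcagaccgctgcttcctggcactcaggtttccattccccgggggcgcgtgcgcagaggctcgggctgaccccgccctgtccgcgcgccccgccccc
Cnp held 1 match, ACAAAG at 167 bases before the start, and the windows of Mal and Prx held none, nor did the 4 windows of Pmp22. Of all 32851 mouse windows of this length, 25.2% held a match. A match is a run of letters and not a measured site.

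The other genes of myelin and of the Schwann cell were read in the same way, from a list of 18 proteins without the 6. The table held 17 of them and 11 were tested. In mdx against C57, 5 of the 11 were lower and 1 was higher, and the median difference was -0.54 over the tested genes and -0.17 over all 17, where the median of all probe sets tested was -0.01. In all, 15 of the 17 differences were negative. Drp2, Sh3tc2, Ndrg1 and Mtmr2 were tested and not called in mdx against C57, and for each of them the mdx and C57 mice overlapped. The 5 lower genes were Cmtm5, Cldn19, Fxyd3, Pllp and Plekhb1, of which Fxyd3 and Pllp, like Cadm4, which was not called, reached the minimum signal in C57 only. Such genes could pass only by being higher in C57, which lowers the median of the 11. Of all 14494 probe sets tested 211 passed that way, so the 2 medians are not of like sets. In treated against mdx mice 1 of the 11, Mtmr2, was higher (0.52, adjusted p = 0.0217) and none was lower by limma, with 3 lower at an unadjusted p under 0.05. The median of the 11 was -0.19 in that comparison, where that of all probe sets tested was 0.02. With treated replicate 2 left out, 2 of the 11 were called lower there, Litaf (-0.47, adjusted p = 0.0115) and Ndrg1 (-0.29, adjusted p = 0.0348), and in mdx against C57 Cadm4 was called lower as well (-0.54, adjusted p = 0.0432). In treated against C57 mice 6 were lower and 2 were higher, and without treated replicate 2 Cadm4 was lower too (-0.58, adjusted p = 0.0247).

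Cmtm5, a membrane protein with a MARVEL domain that myelinating glia make, had the largest negative difference of these proteins in mdx against C57. C57 mice measured 5.46, 5.51 and 6.41 in log2 signal, mdx mice 5.14, 4.79, 5.08 and 5.05, and treated mice 5.08, 4.79, 4.75 and 4.60. All dystrophic mice lay below all C57 mice, and C57 replicate 3 stood far above the other 2. The difference of mdx from C57 was -0.78 (adjusted p = 0.0284) and that of treated mice from C57 was -0.99 (adjusted p = 0.0061). Cldn19, a claudin of the tight junctions in the Schwann cell sheath, differed by -0.72 in mdx (adjusted p = 0.022). Mag, the myelin-associated glycoprotein, was under the minimum in all groups.

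The list depended on C57 replicate 3, as the 6 genes did in part. This mouse had the highest value of all 11 for 11 of the 17 proteins, and for 2344 of the 14494 probe sets tested. Without it, the lower calls of the list in mdx against C57 went from 5 to 0 by limma, with 5 lower at an unadjusted p under 0.05, and those of the 6 genes from 3 to 2, leaving Mbp and Mal. Over all probe sets the lower calls went from 719 to 427. The difference went from -0.78 to -0.47 for Cmtm5, from -0.72 to -0.46 for Cldn19, from -0.71 to -0.47 for Fxyd3 and from -0.67 to -0.44 for Pllp, and from -0.57 to -0.52 for Plekhb1, with adjusted p of 0.0606 to 0.0813. In treated against C57 mice the lower calls of the list went from 6 to 5 (Ndrg1 lost) and its higher calls from 2 to 0, with Mtmr2 at an adjusted p of 0.0723 and Litaf at 0.0585. This mouse was the highest C57 mouse for 12 of the 17 proteins (70.6%) and 5 of 6 perineurial markers (83.3%). It was also the highest C57 mouse for 6 of 10 myelin lipid enzymes, 9 of 18 cholesterol synthesis genes and 5 of 9 axon genes (55.6%). Its share was smaller for regulators of the Schwann cell (7 of 18, 38.9%) and genes of non-myelinating or repair Schwann cells (4 of 14, 28.6%). For genes of the node of Ranvier it was 2 of 12 (16.7%), and for all probe sets tested it was 37.3%.

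The 1 protein of the list called higher in mdx against C57 was Litaf. It is an endosomal protein whose mutations cause a demyelinating neuropathy and which macrophages also make. In mdx muscle Litaf was above C57 (0.89, adjusted p = 0.0024), with 7.32, 7.42 and 7.40 in C57 and 8.05, 8.30, 8.26 and 8.48 in mdx mice. All 10 macrophage markers rose in mdx with a median of 1.49 (8 without C57 replicate 3, where Csf1r had an adjusted p of 0.0654 and Cd14 of 0.118, and 9 with no minimum signal), and their summed linear signal was 1731 to 2161 in C57 mice, 4556 to 6875 in mdx mice and 3044 to 4668 after treatment. The part of macrophages in the signal of Litaf was not tested.

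**Figure D3:**
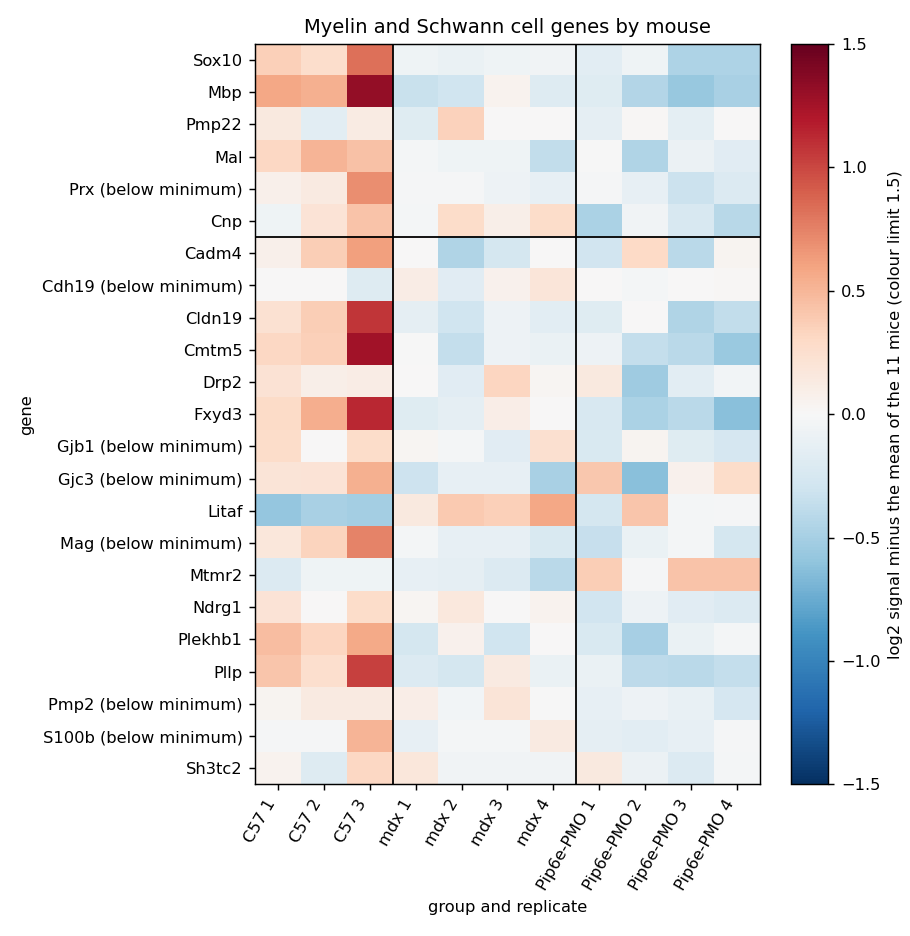
Log2 signal of each gene (rows) in each of the 11 mice (columns), minus the mean of the gene over the mice, with the 6 genes above the line and 17 other myelin and Schwann cell proteins below it. Colours stop at 1.5 in either direction; C57 replicate 3 is the darkest column for Mbp, Cmtm5, Cldn19, Fxyd3 and Pllp, and Litaf runs the other way.

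By limma, no other regulator of the Schwann cell that was tested was lower in mdx muscle, and 0 were lower at an unadjusted p under 0.05. The table held 18, of which 10 were tested, and 3 were higher in mdx than in C57, Egr2 (0.77, adjusted p = 0.0162), Nab2 (0.70, adjusted p = 0.0263) and Id2 (1.15, adjusted p = 0.004). Egr2 is the zinc finger factor that drives myelin genes together with SOX10, Nab2 is its corepressor, and Id2 is an inhibitor of bHLH factors. All of them are also made by cells other than Schwann cells, whose part in these signals was not tested. Erbb3, the neuregulin receptor of Schwann cells, measured 6.25, 6.33 and 6.07 in C57 and 6.10, 6.15, 6.20 and 6.11 in mdx mice, a difference of -0.08 (-0.31 to 0.15, adjusted p = 0.73). Against mdx, treated mice had lower Nab2 (-0.59, adjusted p = 0.0438), and higher Zeb2 (0.54, adjusted p = 0.0244) and Tead1 (0.50, adjusted p = 0.0352). Without C57 replicate 3 Nab2 was called in neither comparison (0.75, adjusted p = 0.059 in mdx against C57, and adjusted p = 0.0544 in treated against mdx mice). Egr2 was lower in treated than in mdx mice when treated replicate 2 was left out (-0.66, adjusted p = 0.0136).

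Of 14 genes of non-myelinating or repair Schwann cells, 8 were tested and 1 was higher in mdx, Ncam1, an adhesion molecule that denervated and regenerating muscle fibres also make (1.32, adjusted p = 0.0024). Ngfr, the low-affinity neurotrophin receptor of immature and repair Schwann cells, measured -0.17 (-0.43 to 0.10, adjusted p = 0.449). None of the 8 was called by limma or by the methods' t-test in treated against mdx mice, and 2 had an unadjusted p under 0.05 in limma. Scn7a was called higher (0.64, adjusted p = 0.0176) and Ncam1 lower (-0.69, adjusted p = 0.0375) there when treated replicate 2 was left out. In treated against C57 mice Ncam1, Scn7a and Cdh2 were higher, and Ncam1 was not without C57 replicate 3 (adjusted p = 0.157) or without treated replicate 2 (adjusted p = 0.0578).

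The enzymes of myelin lipid did not go one way. Of 8 tested, Fa2h, which hydroxylates the fatty acids of myelin galactolipids, was lower in mdx (-1.10, adjusted p = 0.0059), and Aspa (0.95, adjusted p = 0.0139), Scd2 (0.76, adjusted p = 0.0103) and Ugcg (0.53, adjusted p = 0.0179) were higher. Fa2h measured 5.30, 4.73 and 5.43 in C57, 4.15, 3.53, 4.52 and 4.02 in mdx and 3.92, 3.96, 4.22 and 3.97 in treated mice, and it reached the minimum signal in C57 only. Without C57 replicate 3 Fa2h (-0.96, adjusted p = 0.0326) and Scd2 (0.87, adjusted p = 0.016) were still called, whereas Aspa (0.82, adjusted p = 0.0704) and Ugcg (0.49, adjusted p = 0.0751) were not. Elovl1 was called higher in mdx too (0.39, adjusted p = 0.0354) when treated replicate 2 was left out. Of 17 cholesterol synthesis genes tested, 3 were higher and 1 was lower in mdx against C57, and 9 were higher and 1 was lower in treated against C57 mice. Without C57 replicate 3 the higher calls were 2 (Sqle lost, adjusted p = 0.0631) and 7 (Lss and Cyp51 lost, adjusted p = 0.0991 and 0.0998), and without treated replicate 2 the calls in treated against C57 mice were 8 higher and 3 lower. Fdft1, squalene synthase, was the lower one in both (-0.98, adjusted p = 0.0056, and -0.86, adjusted p = 0.0078).

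At the node of Ranvier and its flanks, 4 of 12 genes were tested and 2 were lower in mdx. Cntnap2, an adhesion protein of the juxtaparanode, measured 5.43, 5.42 and 5.29 in C57, 4.56, 4.72, 4.70 and 4.82 in mdx and 4.81, 4.42, 5.0 and 4.82 in treated mice, with no overlap between C57 and the others. Its difference in mdx was -0.68 (adjusted p = 0.0049), and -0.72 (adjusted p = 0.0146) without C57 replicate 3. Cntnap2 reached the minimum in C57 only. Kcna1, the potassium channel subunit at the same place, differed by -0.45 (adjusted p = 0.0466), which was lost without that mouse (-0.34, adjusted p = 0.19). Of 9 axon genes 2 were tested and neither was called by limma or the methods' t-test in any comparison, with 1 at an unadjusted p under 0.05 in treated against mdx mice. Without treated replicate 2 that gene, Uchl1, was called lower there (-0.85, adjusted p = 0.0153), and with 2 genes tested these arrays say little of axons.

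Perineurial cells wrap each nerve fascicle, and 3 of 5 tested markers of theirs were lower in mdx than in C57. The tight junction protein Cldn1 measured 6.55, 5.99 and 6.62 in C57, 5.57, 5.70, 5.52 and 4.88 in mdx and 5.74, 5.88, 5.67 and 5.61 in treated mice. Its difference in mdx was -0.97 (adjusted p = 0.0068). Perp differed by -0.88 (adjusted p = 0.0022) and Itgb4, the laminin receptor subunit that Schwann cells also carry, by -0.49 (adjusted p = 0.0411). Without C57 replicate 3, the highest C57 mouse for 5 of the 6 markers in the table, Cldn1 (-0.85, adjusted p = 0.0385) and Perp (-0.73, adjusted p = 0.0115) remained lower and Itgb4 did not (-0.29, adjusted p = 0.135). Tjp1, a scaffold of tight junctions that endothelium also holds, was higher in treated than in mdx mice (0.66, adjusted p = 0.0247).

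Other cells that use some of the 6 genes were read from their own markers. All 8 oligodendrocyte markers, Mog and Mobp included, stayed under the minimum signal in every group, with a summed linear signal of 77.3 to 96.0 per mouse. Of 8 T cell markers 2 were tested and neither was called by limma or the methods' t-test in any of the 3 comparisons, with 1 at an unadjusted p under 0.05 in mdx against C57 and 1 in treated against mdx mice. Without treated replicate 2 Thy1, which nerve and fibroblasts also make, was called in mdx against C57 (0.52, adjusted p = 0.0303) and in treated against mdx mice (-0.60, adjusted p = 0.0132). With no minimum signal 1 of the 8 was called higher in mdx, where 1013 of all 28350 probe sets were. In 3 of the 8 every mdx mouse lay above every C57 mouse, where 2492 of all 28350 probe sets did so. Of 7 melanocyte markers, which share Sox10 with Schwann cells, 2 were tested (Mitf and Kit), and both were higher in treated than in mdx mice (0.66, adjusted p = 0.0224, and 0.48, adjusted p = 0.0376), while Sox10 was not. The other melanocyte markers were under the minimum signal in every group. Over all 7 the median difference of treated from mdx mice was 0.04, and 3 of the 7 differences were negative. None of 9 muscle fibre markers was called by limma or the methods' t-test in any comparison, with 0 at an unadjusted p under 0.05 in mdx against C57, where their median was 0.01. Without treated replicate 2 Myh1 was higher in treated than in C57 mice (0.40, adjusted p = 0.039). Adipocyte markers were lower in treated than in mdx mice for 4 of 5 tested (median -1.56), in the comparison in which Cnp was lower, and their part in the level of Cnp was not tested. Fibroblast markers were higher in mdx for 5 of 9 (4 without C57 replicate 3) and regenerating fibre markers for 4 of 6, and 0 of 6 endothelial markers were called by limma there, with 0 at an unadjusted p under 0.05.

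**Figure D4:**
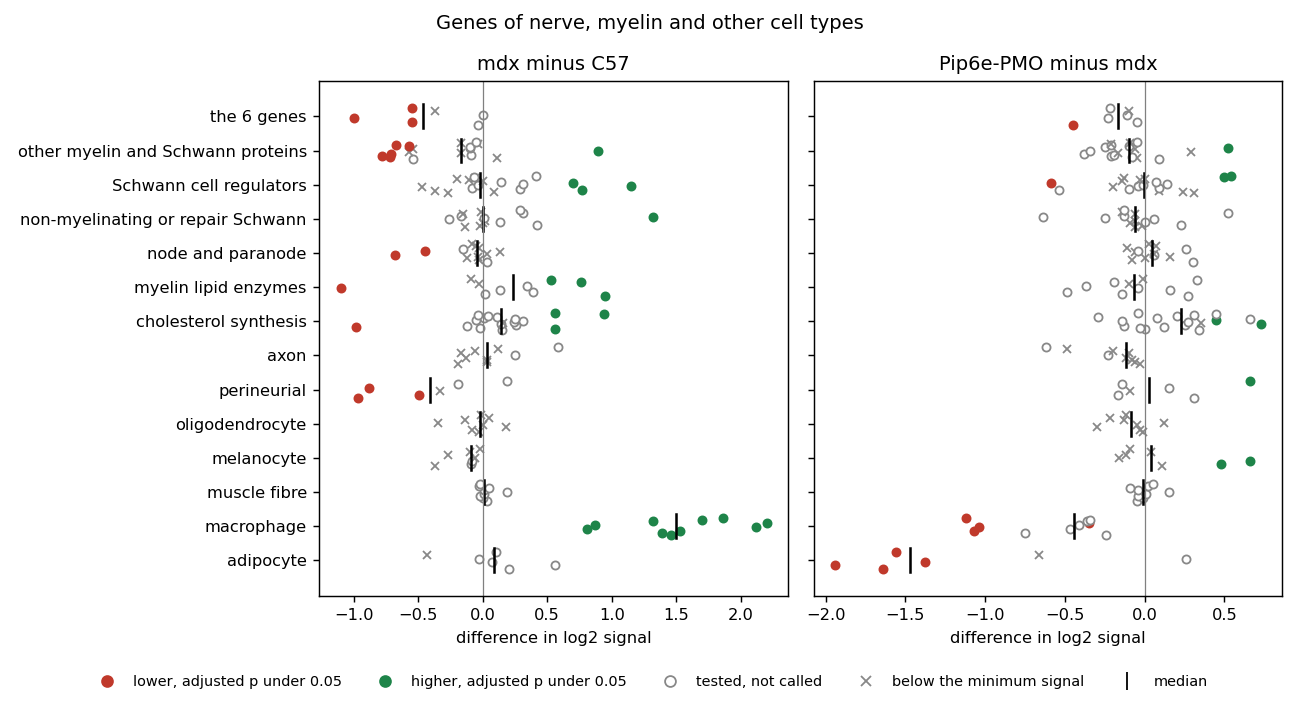
Difference in log2 signal (x axis) of each gene in the lists (rows) for mdx minus C57 (left) and Pip6e-PMO minus mdx (right), with called genes in red (lower) or green (higher), other tested genes as open circles, genes below the minimum signal as crosses and the median of all genes in the table as a bar. In mdx minus C57 the called genes of myelin proteins and perineurial cells lie below 0 except Litaf, those of macrophages lie above 0, and in Pip6e-PMO minus mdx Cnp is the one called gene of the 6.

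The genes whose pattern over the 11 mice was most like the mean of the 6, after each was standardized, were Comtd1 (Pearson r of 0.963), Lmf1 (0.957), Cytl1 (0.957), Fxyd3 (0.943), Tagln (0.943), Tysnd1 (0.938), Tubg2 (0.937), Lrrc61 (0.936), Adig (0.935) and Itgb4 (0.935), out of 11839 genes compared. Fxyd3 and Itgb4 are in the lists of Schwann and perineurial genes. The 11 points share 3 groups and 1 high C57 mouse, and the r of deviations from the group means was 0.65 to 0.90 for the 10. The standardized mean of the 6 was 0.66, 0.59 and 1.80 in the C57 mice, -0.37, 0.33, -0.05 and -0.20 in the mdx mice and -0.55, -0.50, -0.91 and -0.81 in the treated mice. All C57 mice stood above all others, and all treated mice stood below all mdx mice. This order restates the differences of the 6 genes and is no separate result. Of the 6, only Cnp had every treated mouse below every mdx mouse.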

How the data were processed

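Total RNA from the TA was measured on Mouse Gene ST 1.1 arrays from Affymetrix. Per the labels and the study's methods, the authors ran RMA in Affymetrix Expression Console (versions not given in the sources used here), in which background is corrected, arrays are sketch-quantile normalized and probes are summarized by median polish, and they deposited one linear intensity per probe set and mouse. Quantile normalization makes signals relative to all other probe sets of an array. The log2 of the deposited intensity was analysed, and these log2 values step by a hundredth, so finer differences are not resolved. Of 28350 probe sets, 25254 carry a symbol. Where a gene had several probe sets, the brightest over the 11 mice was taken.

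The 14494 probe sets whose mean signal was 30 or more in 1 group or several were fitted with limma 3.58.1 in R 4.3.3, as 3 group means with a spread shared by all 11 mice. Tests were two-sided, with Benjamini-Hochberg adjustment over all probe sets tested and 95% intervals for single genes. The fit was tested on simulated data. Mice of a group are separate animals, numbered by the labels. Promoter windows came from RefSeq (GRCm38.p6), and 4 of the 6 genes had a window that could be used.

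The 6 genes and 17 gene lists were chosen with earlier results of these data known. Genes named are the 6, the called genes of each list or, in lists with over 4 of them, the 4 with the largest difference, defining markers that bear on the 6, and the 10 genes most alike over the mice. Pllp, Plekhb1, Cadm4, Mtmr2, Drp2, Sh3tc2, Tead1, Fdft1 and genes whose calls changed when C57 replicate 3 or Pip6e-PMO replicate 2 was left out were also named, after their values were seen. Ncmap, Tfap2a and Sptbn4 were not matched by symbol and were not analysed here, and a few other genes are not reported here. The alternatives were the unpaired t-test of the methods, only the groups compared, a trended robust prior, array weights, no minimum signal or one of 100, array median centring, repeated quantile normalization, averaging the probe sets of a gene, a replicate block, and each of the 11 mice left out. Counts over the gene lists without C57 replicate 3, without Pip6e-PMO replicate 2 and with no minimum signal were added after seeing the data. Python 3.11.15, pandas 2.3.3, NumPy 2.4.6 and matplotlib 3.10.9 were used.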

Additional observations from a re-analysis of the deposited data

Results flagged for a closer look

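Among 12 groups of 4 mice checked for the 6 genes, 1 held a mouse far from its group. Mal in mdx replicate 4 measured 4.42 in log2 signal, below the other mdx mice at 4.73 to 4.76, with a gap of 0.912 of the group's range which is above the 95% critical value of Dixon's test. Chance flags about 1 in 20 such groups. Without this mouse every call of Mal was kept.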

How the results depend on the processing

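Of the genes called in mdx against C57 (3 of 5 tested), the methods' t-test with Benjamini-Hochberg adjustment left 0, a minimum signal of 100 left 1 (Mbp, with Mal and Sox10 no longer tested) and the replicate block left 1 (Mbp). The methods' t-test passed the same 3 at an unadjusted p under 0.05, where 24.1% of all probe sets did. In treated against mdx mice the call of Cnp (1) went to 0 with the t-test (1 at an unadjusted p), with only the 2 groups compared, with no minimum signal and with the replicate block, and array weights gave 2 (Sox10 and Cnp). In treated against C57 mice the 4 calls went to 1 with the t-test (4 at an unadjusted p) and to 2 with a minimum of 100, and were 3 with only the 2 groups compared (Cnp lost, adjusted p = 0.0539) and 5 with no minimum signal. When single mice were left out, the calls ranged from 2 to 3, from 0 to 1 and from 3 to 4. Uncalled differences changed sign for Cnp in mdx against C57, to 0.08 without C57 replicate 3 and 0.02 without mdx replicate 1 (range when single mice were left out, -0.17 to 0.08), and for Mal in treated against mdx mice, to 0.05 without Pip6e-PMO replicate 2 (range -0.13 to 0.05). Replicate numbers did not pair the mice: deviations of same-numbered mice correlated at -0.297 to 0.153 in 10 pairs. The causes of these changes were not tested, except that fewer genes are tested at the higher minimum.

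Low signal limits Prx, Mal and Sox10, which lay under the minimum in both dystrophic groups, and 3 C57 mice limit every comparison with them. The methods' t-test at an unadjusted p passed 3495, 3632 and 4580 probe sets and, after adjustment, 791, 88 and 1274, where limma called 1742, 1615 and 3564 in mdx against C57, treated against mdx and treated against C57. The replicate block called 1145, 498 and 2332. Array weights called 3379, 4614 and 6547. Without C57 replicate 3 the counts were 1133, 1453 and 1893, and without Pip6e-PMO replicate 2 they were 2217, 4103 and 4933.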
